A study of Mus musculus with 2 samples.

Results

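Otp CUT&RUN regions that lay at the ends of non-coding genes and away from every protein-coding gene end were 579 of the 11379 regions in the Otp list. They were chosen by position from the deposited summits: chromosomes 1 to 19, no overlap with an IgG region, summit within 1 kb of an end of a non-coding RefSeq gene and over 1 kb from every end of a protein-coding one. On those chromosomes 11085 Otp regions were listed, of which 254 (2.29%) overlapped an IgG region, and the 579 made up 5.35% of the 10831 that did not (95% exact binomial interval 4.93 to 5.79%). The nearest non-coding genes numbered 550, and 28 of them had more than 1 of the regions.

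CUT&RUN cuts and releases the DNA around an antibody bound to chromatin, so a region is a place where released fragments piled up. The series holds 2 libraries from the paraventricular nucleus (PVN) of wild-type mice: 1 made with an antibody to Otp, a homeodomain transcription factor of hypothalamic neurons, and 1 with IgG, which has no chosen target. Per the labels the cells are neurons, and nuclei were released by douncing and collected through a sucrose cushion. Age, sex and animal number are not stated in the labels, and no expression was measured, so the cell type could not be checked against markers. With 1 library per antibody no test between Otp and IgG is possible, and every interval given here covers counting error only.

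Long non-coding RNA (lncRNA) genes are transcribed by RNA polymerase II from promoters that resemble those of protein-coding genes but often hold fewer CpG dinucleotides. Transfer RNA (tRNA), U6 and Y RNA genes are read by RNA polymerase III, and most of the other small nuclear RNA (snRNA) genes by RNA polymerase II. MicroRNAs are cut from hairpins in longer transcripts, and many small nucleolar RNAs (snoRNAs) are released from introns of host genes. Pseudogenes are copies of genes that no longer make the protein, and many have no promoter of their own. Homeodomain factors such as Otp bind short sites built around TAAT.

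Among the 579 regions the nearest non-coding gene was a lncRNA gene for 440 (76.0%, 72.3 to 79.4%) and a small RNA gene for 73 (12.6%, 10.01 to 15.6%). A pseudogene was nearest for 55 (9.50%, 7.24 to 12.2%). The other 11 lay at 3 immune receptor segments and at 8 genes of other types. The small RNA genes comprised 30 tRNA, 18 snRNA, 17 microRNA and 3 snoRNA regions, 2 at a Y RNA gene and 1 each at a scRNA, an rRNA and a guide RNA gene. For 51 regions more than 1 non-coding gene end lay within 1 kb, and the nearest one gave the type.

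Promoter windows of 7 lncRNA genes are printed because their summits fell inside the window and because they cover high and low members as well as known lncRNAs. Each runs 5′ to 3′ on the gene's strand from 250 bases before the RefSeq start to 50 after it. Capitals mark matches, on either strand, to the motifs searched: GGGCGG (read by Sp factors), CCAAT (read by NF-Y), TTCCGG (part of many ETS sites), TGACGTCA (read by CREB), the NRF1 motif, the ZNF143 motif, and as homeodomain sites TAATTA and the paired site, TAAT and ATTA with 3 bases between. Matches can overlap, as where TTCCGG and its complement CCGGAA share bases. A match is a match of letters and was not tested as a binding site.
2700012I20Rik promoter, summit 13 bp downstream of the start, 5 CCAAT boxes, GRCm38.p6 chr9:57076000-57076299, minus strand: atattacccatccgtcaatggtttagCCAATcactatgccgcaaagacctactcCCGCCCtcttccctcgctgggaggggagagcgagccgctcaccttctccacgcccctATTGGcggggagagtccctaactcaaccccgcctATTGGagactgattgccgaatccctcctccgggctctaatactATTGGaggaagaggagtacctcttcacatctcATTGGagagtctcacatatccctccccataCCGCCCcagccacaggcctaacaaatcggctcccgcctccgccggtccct
Mir22hg promoter, summit at base 182, GRCm38.p6 chr11:75461289-75461588, plus strand: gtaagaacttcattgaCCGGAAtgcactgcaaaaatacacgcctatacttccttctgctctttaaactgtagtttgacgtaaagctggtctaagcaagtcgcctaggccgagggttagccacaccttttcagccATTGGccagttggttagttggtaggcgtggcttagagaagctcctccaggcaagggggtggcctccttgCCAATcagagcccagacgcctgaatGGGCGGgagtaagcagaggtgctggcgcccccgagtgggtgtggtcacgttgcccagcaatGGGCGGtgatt
BC002059 promoter, summit at base 202, 5 TTCCGG matches, GRCm38.p6 chr17:16951286-16951585, plus strand: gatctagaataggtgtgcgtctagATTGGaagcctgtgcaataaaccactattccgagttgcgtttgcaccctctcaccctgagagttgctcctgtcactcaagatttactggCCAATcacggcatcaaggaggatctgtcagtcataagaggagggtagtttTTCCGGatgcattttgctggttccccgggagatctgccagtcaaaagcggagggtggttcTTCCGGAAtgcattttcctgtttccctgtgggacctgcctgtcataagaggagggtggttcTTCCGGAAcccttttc
Snhg8 promoter, summit at base 60, 4 GGGCGG boxes, GRCm38.p6 chr3:123508287-123508586, minus strand: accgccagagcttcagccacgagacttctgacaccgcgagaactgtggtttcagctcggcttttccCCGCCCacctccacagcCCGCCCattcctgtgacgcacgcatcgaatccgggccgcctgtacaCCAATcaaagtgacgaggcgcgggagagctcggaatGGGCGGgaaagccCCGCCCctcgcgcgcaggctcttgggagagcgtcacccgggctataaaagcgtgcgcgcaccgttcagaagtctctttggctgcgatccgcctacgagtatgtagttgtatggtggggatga
Snhg17 promoter, summit at base 180, none of the motifs, GRCm38.p6 chr2:158361473-158361772, minus strand: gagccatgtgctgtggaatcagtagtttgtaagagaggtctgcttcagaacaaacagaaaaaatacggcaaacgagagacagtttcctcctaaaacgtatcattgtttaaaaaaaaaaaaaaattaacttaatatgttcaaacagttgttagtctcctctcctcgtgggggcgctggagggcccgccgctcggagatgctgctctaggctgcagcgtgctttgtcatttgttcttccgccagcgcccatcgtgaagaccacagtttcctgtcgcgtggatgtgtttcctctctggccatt
Oip5os1 promoter, summit at base 207, GRCm38.p6 chr2:119594046-119594345, plus strand: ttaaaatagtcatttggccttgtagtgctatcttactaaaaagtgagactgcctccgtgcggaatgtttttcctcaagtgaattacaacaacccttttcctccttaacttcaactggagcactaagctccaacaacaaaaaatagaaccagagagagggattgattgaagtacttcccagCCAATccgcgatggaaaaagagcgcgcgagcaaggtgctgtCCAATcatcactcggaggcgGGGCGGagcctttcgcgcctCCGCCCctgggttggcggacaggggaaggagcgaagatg
Kcnq1ot1 promoter, summit at base 162, 3 CCAAT boxes, GRCm38.p6 chr7:143296498-143296797, minus strand: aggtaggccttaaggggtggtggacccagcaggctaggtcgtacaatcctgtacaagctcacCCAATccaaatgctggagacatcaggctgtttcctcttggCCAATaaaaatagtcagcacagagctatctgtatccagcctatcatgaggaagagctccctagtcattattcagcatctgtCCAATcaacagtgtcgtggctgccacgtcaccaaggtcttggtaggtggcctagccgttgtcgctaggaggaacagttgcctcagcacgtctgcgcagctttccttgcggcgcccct
None of the 7 windows held TAATTA or the paired site. CCAAT was found in 6 of them, all but Snhg17, but the windows were picked and the count is not a rate. It was in 39.1% of lncRNA windows with a region and 37.4% of all promoters. Among high members not printed with the summit in the window, 1110020A21Rik and Gm4258 held CCAAT. The windows of 6430590A07Rik, Gm40345 and Gm13421 did not. The summit of 2700012I20Rik lay at base 264, beyond the start, and that of Snhg8 lay at base 60, farther upstream.

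Mature microRNAs of the Mir344 cluster are printed because 5 of its genes had a region just upstream of the hairpin, and 3 others because they belong to known microRNAs beside a region. Capitals mark the seed, bases 2 to 8, which pairs with target RNAs. The sequences are RefSeq's on GRCm38.p6.
miR-344-5p (Mir344 and Mir344-2): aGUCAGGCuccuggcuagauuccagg
miR-344b-5p (Mir344b): aGUCAGGCuccuggcuaaaguuc
miR-344g-5p (Mir344g): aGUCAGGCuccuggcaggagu
miR-344h-5p (Mir344h-2): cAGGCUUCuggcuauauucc
miR-344-3p (Mir344 and Mir344-2): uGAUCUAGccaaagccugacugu
miR-344b-3p (Mir344b): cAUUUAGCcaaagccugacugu
miR-344g-3p (Mir344g): cAGGCUCUagccaggggcuuga
miR-344h-3p (Mir344h-2): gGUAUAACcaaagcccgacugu
miR-344c-5p (Mir344c, no region): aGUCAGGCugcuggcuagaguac
miR-128-3p (Mir128-2): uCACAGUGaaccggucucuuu
miR-210-3p (Mir210): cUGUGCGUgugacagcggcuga
miR-22-3p (carried by Mir22hg): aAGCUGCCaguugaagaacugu
Mir344 and Mir344-2 encode identical mature microRNAs, and the 5p seed GUCAGGC is shared by Mir344, Mir344-2, Mir344b and Mir344g. The same 5p seed is found in Mir344c, Mir344d-1 and Mir344d-3, which had no region.

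The deposited fold enrichment, the ratio of the pileup at the summit to the peak caller's own background, had a median of 6.62 over the 579 regions (interquartile range 5.69 to 8.01, range 2.00 to 27.7). The median −log10 q was 7.05 (4.88 to 10.4, range 2.05 to 68.9). The number of tags, meaning reads or fragments at the summit, was worked out from the deposited values for 566 regions and had a median of 13 (interquartile range 10 to 17, range 6 to 196). A −log10 q of at least 10 was reached by 156 of the 579 (26.9%, 23.4 to 30.8%), beside 33% of all 10831 regions. At protein-coding gene ends it was reached by 45.7% of 5304 regions (44.3 to 47.0%), with a median fold of 7.57 and a median of 15 tags. Elsewhere inside protein-coding genes it was reached by 21.2% of 2626 regions (19.7 to 22.8%), and elsewhere outside them by 19.04% of 2322 (17.5 to 20.7%). By this share alone the regions at non-coding ends stood between those at protein-coding ends and those away from gene ends. The interval of their share overlapped none of the intervals of these 3 groups. By median fold the regions at non-coding ends were not intermediate in this way. They lay below those at protein-coding ends but close to both groups away from gene ends. Their median width was 119 bp, against 167 bp at protein-coding ends.

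**Figure D1:**
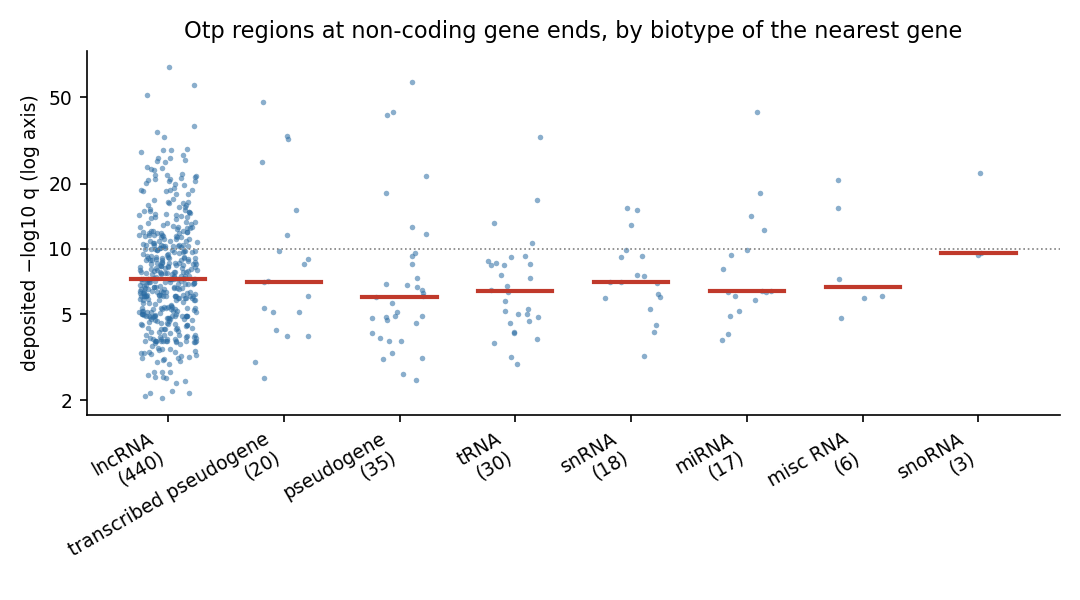
Deposited −log10 q (log axis) of Otp regions at non-coding gene ends, 1 point per region, by the biotype of the nearest gene with the number of regions in brackets. Red lines are medians, the dotted line marks a −log10 q of 10, and 10 regions of the remaining types are not drawn. The medians lie between 6.02 and 7.30 except that of the 3 snoRNA regions at 9.54, while the highest points are lncRNA, pseudogene and microRNA regions.

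Medians differed little between the classes. The median fold was 6.71 at lncRNA genes (interquartile range 5.78 to 8.10), 6.33 at pseudogenes (5.41 to 8.25) and 6.39 at small RNA genes (5.58 to 7.61). A −log10 q of at least 10 was found for 28.9% of lncRNA regions (24.7 to 33.3%), 23.6% of pseudogene regions (13.2 to 37.0%) and 17.8% of small RNA regions (9.84 to 28.5%). These intervals overlap, so no order of the classes can be read from them. The plot of −log10 q by biotype shows the spread within each type.

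The share of regions that overlapped IgG was near that of the whole list, and the IgG library appeared shallow. Of 594 Otp regions that met the position rule, 15 (2.53%, 1.42 to 4.13%) overlapped an IgG region and were left out. Over all 11085 Otp regions of these chromosomes the share was 2.29%. They were 7 of 62 at pseudogenes (11.3%, 4.66 to 21.9%), 7 of 447 at lncRNA genes (1.57%, 0.632 to 3.20%) and 1 of 74 at small RNA genes. Most of the pseudogene ones lay side by side at Gm10222 and Gm10925 (chr1:24611623-24615564). The pseudogene interval treats these neighbours as independent, so the classes cannot be ranked by it. The caller's background was worked out from the deposited values at summits. The lowest value that recurred, called the genome background here, was 0.512 tags for Otp and 0.0873 for IgG. Their ratio of 5.86 stands in for depth, since no signal was measured away from regions. Divided by that ratio, the tags of 512 of 566 members (90.5%, 87.7 to 92.8%) came to less than 4, the tag number of the lowest IgG region. If that ratio reflects depth, the IgG list could not have shown a signal of the same relative height for those members. Only 54 members could then be set against it. The same share was not counted over all 10831 regions, whose median was also 13 tags, so this limit is not shown to be particular to the members.

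Density was counted because non-coding gene ends cover different lengths of the chromosomes. Within 1 kb of non-coding ends and outside 1 kb of protein-coding ones, 79.3 Mb held 7.30 regions per Mb (95% Poisson interval 6.72 to 7.92). That was 3.39 times the 2.15 per Mb of the rest of the chromosomes, while protein-coding ends held 70.9 per Mb. lncRNA ends held 10.4 per Mb (9.44 to 11.4), and pseudogene ends 2.17 per Mb (1.66 to 2.79), 1.01 times the rest. tRNA ends held 55.8 per Mb (38.2 to 78.8, from 32 regions), 25.9 times the rest. snRNA ends held 11.1 per Mb (6.84 to 16.9), microRNA ends 10.02 (5.94 to 15.8) and snoRNA ends 4.14 (1.98 to 7.61). The density per Mb at tRNA ends thus came near that at protein-coding ends, and the pseudogene interval covers the density of the rest. A gene over 2 kb long adds separate windows for its 5′ and 3′ ends, whereas those of a short gene overlap. Counted per gene, the share with a region was 9.82% of tRNA genes away from protein-coding ends and 27.7% of protein-coding genes.

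**Figure D2:**
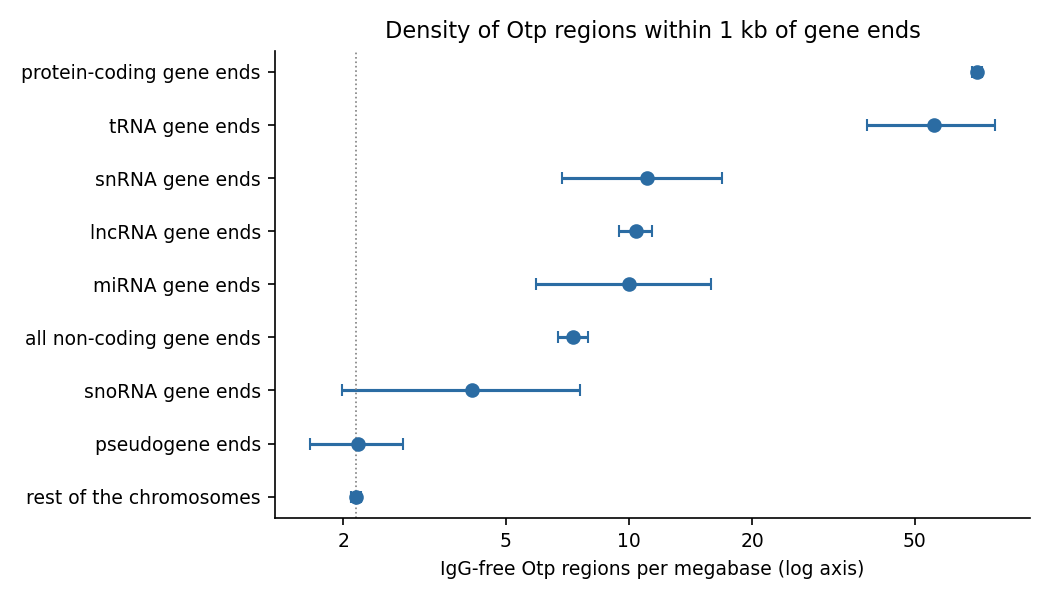
Otp regions without IgG overlap per megabase (log axis) within 1 kb of the ends of each gene type, with 95% Poisson intervals; the dotted line is the rest of the chromosomes at 2.15. Non-coding territories leave out stretches within 1 kb of a protein-coding end; tRNA ends at 55.8 lie nearest to protein-coding ends at 70.9, and pseudogene ends at 2.17 lie on the dotted line.

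tRNA genes were again high and pseudogenes low when genes were counted instead of lengths. Of 22568 non-coding genes with both ends over 2 kb from protein-coding ends, 489 (2.17%) had a region within 1 kb of an end, beside 27.7% of 20665 protein-coding genes. The share was 3.64% of 9751 lncRNA genes (3.28 to 4.03%), 2.29% of 3312 small RNA genes (1.81 to 2.86%) and 0.549% of 8737 pseudogenes (0.405 to 0.728%). Transcribed pseudogenes stood apart from the others, with intervals that do not overlap: 15 of 364 (4.12%, 2.32 to 6.71%) against 33 of 8372 (0.394%, 0.271 to 0.553%). Among tRNA genes 32 of 326 had one (9.82%, 6.81 to 13.6%), whereas 5 of 1124 snoRNA genes did (0.445%, 0.145 to 1.04%). None of 260 ribosomal protein pseudogenes, copies of the genes for ribosome proteins, had a region, which allows a share of up to 1.41% by the exact interval.

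Most lncRNA regions sat at the start of the gene and not at its far end. Among 6566 lncRNA genes over 2 kb long, 196 had a region within 1 kb of the 5′ end (2.99%, 2.59 to 3.43%) and 45 within 1 kb of the 3′ end (0.685%, 0.5003 to 0.916%), with 2 at both. For 14542 protein-coding genes of that length the shares were 30.5% and 1.40%. A RefSeq start was at hand for 353 of the 440 lncRNA regions, and 291 of them (82.4%, 78.1 to 86.3%) lay within 1 kb of it. The other 62 were lower, with a median fold of 6.06 against 6.90, and 9.68% of them reached a −log10 q of 10 (3.63 to 19.9%) against 33.7% at starts (28.3 to 39.4%).

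Summits were spread more widely around lncRNA starts than around protein-coding starts. Upstream of the start lay 167 of the 291 summits (57.4%, 51.5 to 63.1%), against 3510 of 4270 at protein-coding starts (82.2%, 81.0 to 83.3%). The median position was 43 bp upstream at lncRNA starts (offset −43, interquartile range −125.5 to 153) and 71 bp upstream at protein-coding ones (offset −71, −135 to −21). In the 250 bp upstream lay 42.3% of lncRNA summits and 72.5% of protein-coding ones, and in the 250 bp downstream 21.3% and 13.4%. Both distributions peaked in the 100 bp before the start, as the plot of summit positions shows. Whether lncRNA starts are placed less exactly by the annotation was not tested.

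**Figure D3:**
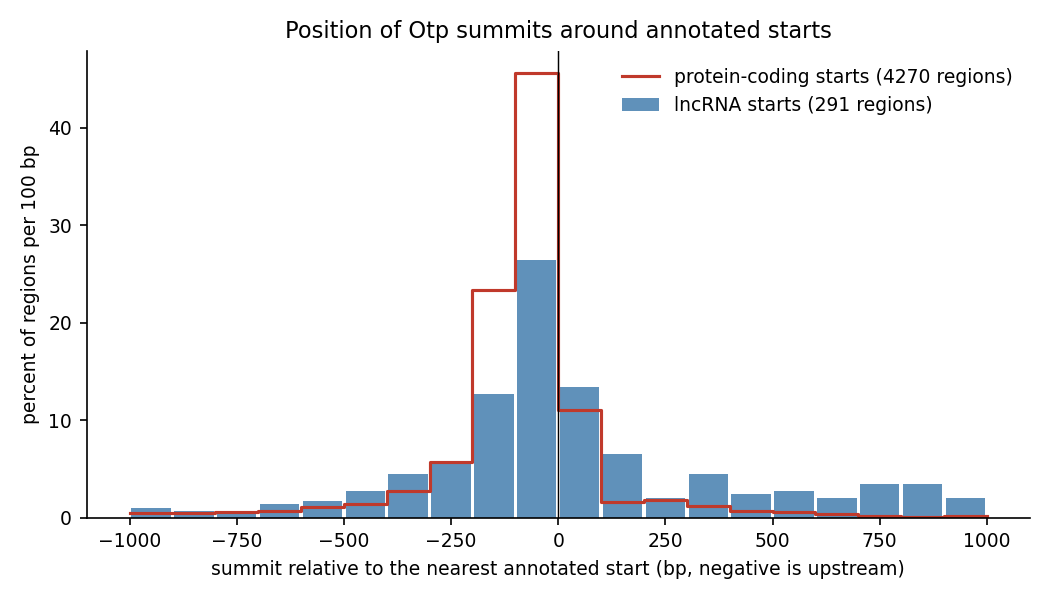
Percent of Otp summits per 100 bp around the nearest annotated start, with negative positions upstream; blue bars are 291 regions at lncRNA starts and the red line is 4270 regions at protein-coding starts. Both peak just upstream of the start, and the lncRNA bars are lower there and have a longer downstream tail.

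CpG-rich lncRNA starts carried a region far more often than CpG-poor ones. Of 8876 lncRNA starts away from protein-coding ends, 294 had a region within 1 kb (3.31%). Starts near that of a protein-coding transcript inside its gene were not left out, and their share in each CpG class was not counted. The windows of the 294 starts with a region held a median of 8 CpG dinucleotides (interquartile range 5 to 18.75) against 3 (2 to 6) in the 8582 without. The share with a region was higher in each CpG class than in the one below, from 1.18% of starts with 0 to 2 CpG (0.841 to 1.61%) to 36.5% of starts with 21 or more (66 of 181, 29.5 to 43.9%). In between it was 1.93%, 3.84% and 11.4%. Protein-coding starts gave 0.881%, 3.80%, 14.7%, 42.3% and 48.4% in the same 5 classes. At 6 to 10 and at 11 to 20 CpG the share was thus over 3 times higher at protein-coding starts, and in the lowest class the intervals overlap.

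**Figure D4:**
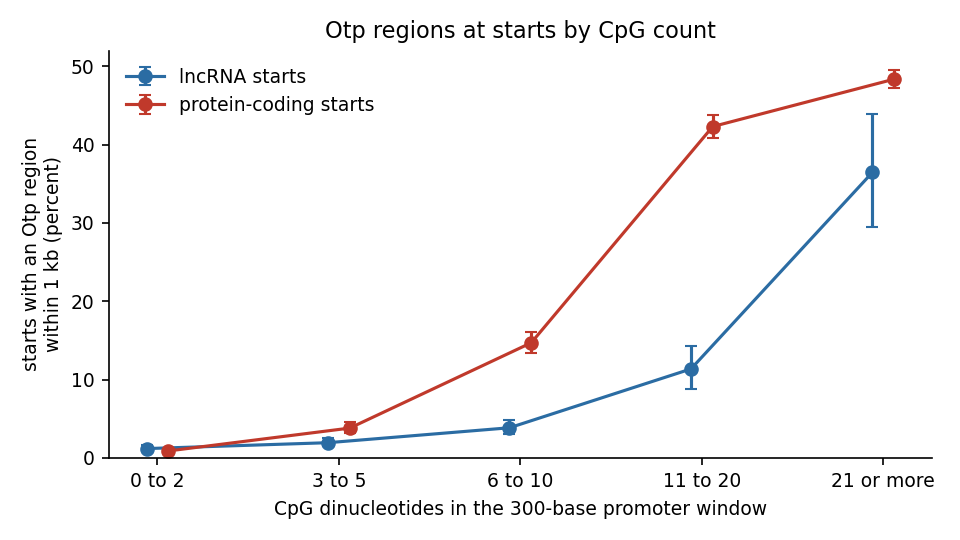
Share of annotated starts with an Otp region within 1 kb (percent, with 95% exact binomial intervals) against the number of CpG dinucleotides in the 300-base promoter window, for lncRNA starts (blue) and protein-coding starts (red). Both rise with CpG number, to 36.5% and 48.4% in the top class, and the lncRNA points lie lower from 3 CpG upward.

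GGGCGG and TTCCGG were more frequent in lncRNA windows with a region than without, and the homeodomain letters were not. The windows with a region were also richer in GC (median 53.2% against 47%). Whether the GGGCGG and TTCCGG shares differ among windows of like GC or CpG content was not tested. GGGCGG was in 37.8% of lncRNA windows with a region (32.2 to 43.6%) and 9.05% of those without, beside 35.7% of all 32851 promoters in the table. TTCCGG was in 14.3% and 5.85% (all promoters 14.9%), and CCAAT in 39.1% and 36.4% (37.4%). TGACGTCA was in 2.04% (0.753 to 4.39%) and 0.722% (0.554 to 0.925%), intervals that overlap, and in 1.79% of all promoters. TAATTA was less frequent with a region, 4.08% (2.13 to 7.02%), than without, 7.67% (7.11 to 8.25%), and was in 5.29% of all promoters. The paired site was in 0.680% and 0.816% (0.487%), the NRF1 motif in 0.680% and 0.0816% (0.971%), and the ZNF143 motif in 0% and 0.0117% (0.286%). At 0 to 2 CpG a region was found at 4 of 306 lncRNA starts with TAATTA (1.31%, 0.357 to 3.31%) and at 1.17% of those without (0.815 to 1.62%). With TAATTA it was 4 of 238 at 3 to 5 CpG and 3 of 111 at 6 to 10, and the intervals overlapped there too. Only 14 starts at 11 to 20 CpG and 1 at 21 or more held TAATTA, too few to compare. The windows hold the summit for 144 of the 291 regions, so these letters describe the promoter and not always the region.

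The highest lncRNA region lay at 1110020A21Rik, a lncRNA model of unstated function, at chr17:84957530-84958026 (mm10), with a fold of 14.96, a −log10 q of 68.9 and 85 tags (95% Poisson interval 67.9 to 105). Its summit was 107 bp upstream of the lncRNA start, inside the protein-coding gene Ppm1b and 184 bp from an annotated start of Ppm1b, a protein phosphatase gene. The next by −log10 q was AY036118 (57.3, with 196 tags but a fold of only 4.33), since its local background was 44.5 tags. It lies beside Rn18s-rs5, a sequence related to 18S ribosomal RNA, and an IgG region lies within 1 kb of it. The third was 2700012I20Rik at chr9:57075775-57076320 (fold 11.7, −log10 q 51.5, 74 tags), 340 bp from an annotated start of Sin3a, which encodes the scaffold of a histone deacetylase complex.

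Starts of protein-coding transcripts inside their gene were close to 74 of 563 members for which such starts are listed (13.1%, 10.5 to 16.2%, within 1 kb). This share was not counted for the other Otp regions, so it is not shown to be particular to the members. These 74 had a median fold of 7.42, and 44.6% of them reached a −log10 q of 10 (33.0 to 56.6%). The 489 members farther away had a median fold of 6.61 and a share of 24.3% (20.6 to 28.4%), so the intervals did not overlap. The interval of the 44.6% covers the 45.7% found at protein-coding gene ends. Among the 15 highest lncRNA regions, 6430590A07Rik (fold 13.0) lay 87 bp from a start of Abhd18 and Gm40345 (fold 12.3) 132 bp from a start of Por, the electron donor of microsomal P450 enzymes. At these genes a region cannot be given to the lncRNA or to the protein-coding transcript.

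Farther from any protein-coding start, Mir22hg, the host transcript of microRNA miR-22 whose seed is printed above, had 2 regions. The higher one, at chr11:75461208-75461621, had a fold of 12.1, a −log10 q of 36.7 and 50 tags, and its summit lay 69 bp upstream of the start. The lower one had a fold of 4.25 and 17 tags, 869 bp upstream. Chaserr, a lncRNA known to hold down its neighbour Chd2, had a fold of 12.9 and 35 tags with the summit 316 bp upstream of its start, at chr7:73558509-73558883. BC002059, with 5 TTCCGG matches in its window, had a fold of 15.2 and 27 tags 49 bp upstream, and a lower region of fold 5.95 beside it.

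The other high lncRNA regions were at gene models of unstated function. Gm46178 (chr1:191120935-191121008) had the highest fold among lncRNA members, 18.5, with 27 tags over the genome background of 0.51. 4930577N17Rik followed with 15.7 and 37 tags, 535 bp from the gene end and inside Elf2. Gm4258 (13.6), Gm26901 (13.5), D130051D11Rik (13.0) and Gm13421 (12.0) held 29 to 34 tags each. Gm52861 had 62 tags but a fold of 6.28, over a local background of 9.03 tags. Apart from Gm52861 these regions stood on a local background of under 2 tags. Over all members the local background was more than 2 times the genome background at 256 of 566 (45.2%, 41.1 to 49.4%), a share not counted for the other Otp regions.

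Of 19 small nucleolar RNA host genes, transcripts that carry snoRNAs in their introns, 6 had a member region. Snhg8 was highest with a fold of 11.5 and 27 tags, 191 bp upstream of the start at chr3:123508342-123508621. Snhg17 had 8.23 with 15 tags, Snhg9 8.13 with 17 tags and Snhg3 7.11 with 12 tags. Snhg5 with 5.59 and Snhg15 with 5.47 had 9 tags each, near the low end of the list. Their summits lay within 240 bp of the annotated start, and that of Snhg9 also lay 61 bp from a start of Rps2, a ribosomal protein gene. Snhg6, Gas5 and Snhg1 had regions that also lay at a protein-coding end, Snhg10 had one that overlapped IgG, and 9 had none. Of the 8 host genes away from protein-coding ends, 4 had a member (50%, 15.7 to 84.3%), beside 3.64% of all such lncRNA genes.

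Of 42 known neural and nuclear lncRNAs, 4 were members: Mir22hg, Oip5os1, Kcnq1ot1 and Mirg. The 42 were limited to genes of the lncRNA biotype. Away from protein-coding ends the share was 3 of 30 (10%, 2.11 to 26.5%), an interval that covers the 3.64% of all such lncRNA genes. Oip5os1, also called Cyrano and known for triggering the decay of miR-7, had a fold of 8.26 and 16 tags, 44 bp upstream of its start. Kcnq1ot1, the imprinted antisense transcript that silences genes around Kcnq1, had a fold of 7.31 and 12 tags, 89 bp upstream. Mirg, a microRNA-carrying transcript of the imprinted Dlk1 locus, had a fold of 6.19 and 13 tags, 502 bp from its 3′ end and 14979 bp from its start. Pantr1 and Tug1 had regions also at a protein-coding end, Crnde had one that overlapped IgG, 3 are on the X chromosome and 32 had none. Those 32 included Malat1 and Neat1, abundant nuclear lncRNAs, and Meg3, Miat, Rmst and Sox2ot, known from neural tissue. Absence from the list means that no region passed the caller's threshold at this depth, not that nothing was bound.

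Antisense and opposite-strand lncRNAs, named after the gene they face, had members at 7 of 212, and 22 more had a region that also lay at a protein-coding end. Away from protein-coding ends 6 of 101 had one (5.94%, 2.21 to 12.5%), which again covers the 3.64% of all lncRNA genes. Rab10os had a fold of 9.15 and 23 tags, and Hk1os had 7.12 and 18 tags with its summit 14 bp upstream of its own start and 201 bp from one of Hk1, a hexokinase gene. The others were Oip5os1, Ttc39aos1 (6.68), Zfp286os (7.48), Zfp652os (7.07) and Zbtb11os1 (5.92 and 4.96). Gnasas1, an antisense RNA of the imprinted Gnas locus, had a fold of 8.80 and 13 tags 47 bp from its end. Its biotype is antisense RNA and not lncRNA, so neither this list nor that of neural and nuclear lncRNAs counts it. Dancr, a snoRNA-carrying lncRNA chosen after its value was seen, had 11.7 and 22 tags, 51 bp upstream. lncRNA genes with symbols of their own had a region in 21 of 287 (7.32%, 4.59 to 10.97%), and unnamed models in 334 of 9464 (3.53%, 3.17 to 3.92%), so the 2 intervals did not overlap.

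Of 430 tRNA genes 36 had a member within 1 kb, 19 had a region also at a protein-coding end and 336 had none. As the nearest gene they carried 30 regions at 29 genes. Their fold ran from 4.65 to 11.2 with a median of 6.28, and their tags from 9 to 47 with a median of 13. The summits lay 6 to 520 bp from the gene, 76.7% of them within 250 bp (57.7 to 90.1%). The highest was n-TRcct1, an arginine tRNA gene, at chr6:38533408-38533842 with a fold of 11.2, a −log10 q of 32.9 and 47 tags. Its summit lay 1092 bp from Fmc1, just outside the bound for protein-coding ends. n-TAagc8, an alanine tRNA gene, had 9.81 and 24 tags, and n-TRtcg5 had 9.07 and 19 tags but lay 14 bp from a start of Polg, the mitochondrial DNA polymerase gene. Chromosomes 13 and 14 each held a run of 3 tRNA members with neighbours within 100 kb: n-TLcaa1 (7.78), n-TAagc19 (7.51) and n-TRtcg2 (5.81), and n-TLaag8 (6.19), n-TPagg4 (5.76) and n-TYgta10 (4.69). tRNA genes are many near-identical copies, and no source used here says how reads that match several copies were placed, so the value at any 1 copy is uncertain.

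Other genes read by RNA polymerase III were also listed: 4 of 10 had members and 4 had a region also at a protein-coding end (Rmrp, Bc1, Rn7s1 and Rpph1). Away from protein-coding ends 4 of 6 had one (66.7%, 22.3 to 95.7%), beside 2.17% of all such non-coding genes. Rny1, a Y RNA gene, had 2 regions with folds of 6.80 and 5.63 and 16 and 13 tags. Rn7sk, whose RNA holds the elongation factor P-TEFb inactive, had a fold of 6.09 with 15 tags, and a second region of 7.32 with 18 tags lay nearer to the lncRNA C920006O11Rik. Rn7s2, a gene for the RNA of the signal recognition particle, had 5.59 with 14 tags, and Vaultrc5, a vault RNA gene, had 7.16 with 14 tags 5 bp from its end. Rny3 and Vaultrc-ps1 had none. All of these were of middling or low height for the list.

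snRNA genes, which make the RNAs of the spliceosome and of rRNA processing, had 18 regions with a median fold of 6.50 (5.66 to 7.69). The highest were Gm29163 (11.2, 16 tags, 953 bp away) and Gm25360 (9.70, 21 tags, 144 bp away). Gm25360, Gm23472, Gm24497 and Gm25939 lay within 1 stretch of chromosome 1 together with the lncRNA D230017M19Rik, with folds of 6.06 to 9.70. Rnu1a1, a U1 gene, and Rnu3b1 and Rnu3b4, U3 genes, lay together on chromosome 11 with folds of 5.69, 4.70 and 6.97, and these were the 3 members among 23 genes with Rnu symbols. Away from protein-coding ends that is 3 of 20 (15%, 3.21 to 37.9%), beside 2.20% of all such snRNA genes and 2.17% of all such non-coding genes. On chromosome 6, Rn4.5s (fold 5.69, 42 tags over a background of 6.56) lay near Gm52861, Gm52862 and both Rny1 regions. These too are repeated genes.

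Of 1228 microRNA genes 18 had a member within 1 kb, and 34 had a region also at a protein-coding end. Away from protein-coding ends 16 of 901 had one (1.78%, 1.02 to 2.87%), which covers the 2.17% of all such non-coding genes. As the nearest gene they carried 17 regions at as many genes, and 15 of these have a hairpin entry with a strand. The summit lay upstream of the hairpin in 9 of the 15. Mir344, Mir344-2, Mir344b, Mir344g and Mir344h-2 were 5 of these 9, with summits 149, 131, 118, 143 and 104 bp upstream of the hairpin (as offsets, −149, −131, −118, −143 and −104). They lie on chromosome 7 between 61742529 and 61982502 (mm10) with their hairpins on the minus strand. The folds were 11.6 with 21 tags at Mir344, 8.24 with 14 tags at Mir344g, 7.48 with 12 tags at Mir344-2 and 6.72 with 10 tags at Mir344h-2. Mir344b had a fold of 6.34, and no tag number could be solved. The positions were alike, as the plot of summits at microRNA genes shows, while the folds ran from 6.34 to 11.6. With 10 to 21 tags where solved, a difference in height among the 5 was not tested.

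The other 8 Mir344 genes had no region within 1 kb. The nearest was the Mir344h-2 region itself, 3149 bp from the middle of Mir344h-1. The Mir344 family was picked out after its values were seen. Its genes are close copies of each other, Mir344 and Mir344-2 cannot be told apart by their mature sequence, and the placing of reads among copies is not known, so whether the 5 summits are independent of each other was not tested.

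**Figure D5:**
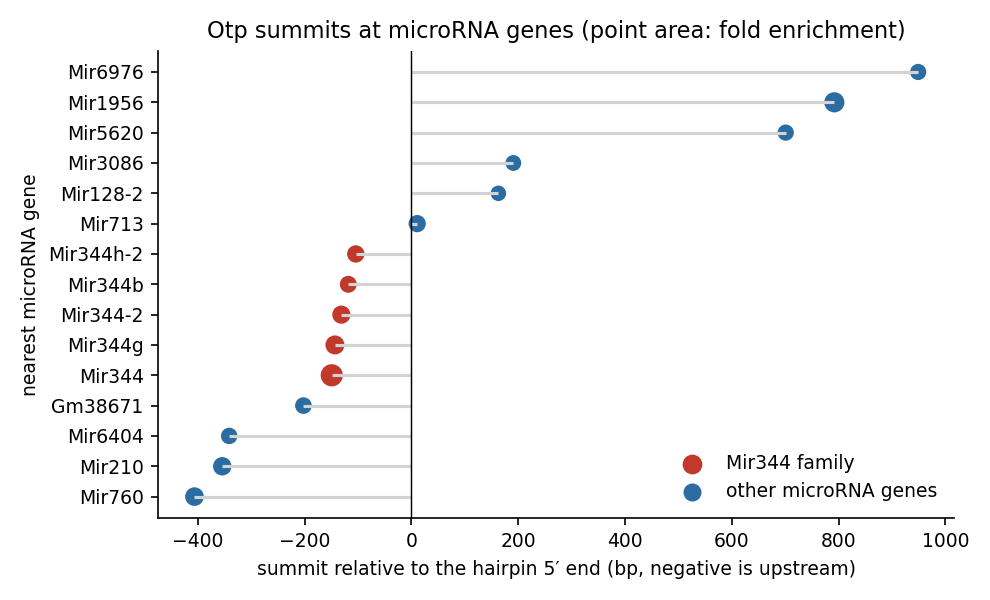
Position of the Otp summit relative to the 5′ end of the hairpin (bp, negative is upstream) for the 15 microRNA members with a hairpin entry; point area is proportional to fold enrichment and red points are the Mir344 family. The 5 Mir344 points fall between −149 and −104, while the others run from −406 to 949.

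Among the other microRNA regions the highest was Mir6236 with a fold of 20.9 and 36 tags, 13 bp from the gene. Mir1956 followed with 9.46 and 20 tags, 1022 bp from Eif4e and thus close to the protein-coding bound. Mir760 had 7.89 and 21 tags 406 bp upstream, and Mir210, a microRNA induced by low oxygen, 7.69 and 15 tags 354 bp upstream. Of 14 microRNA host genes, Mir22hg and Mir670hg (fold 5.49, 10 tags) had members. Away from protein-coding ends 1 of 13 had one (7.69%, 0.195 to 36.0%), which covers the 3.64% of all lncRNA genes. Mir128-2, which makes a microRNA known from neurons, had a low region with a fold of 5.14 and 9 tags, 163 bp past the hairpin 5′ end. The snoRNA model Gm25210, 212532 bp from Snrpn on chromosome 7, had regions of fold 10.8 with 31 tags and 6.79 with 19 tags, at 732 and 306 bp.

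Pseudogenes had few regions but some of the highest. Gm19193 at chr9:95425922-95426026 had the highest fold of all 579, 27.7, with 42 tags over a background of 0.55. 2610005L07Rik had 17.7 with 50 tags, Gm7895 21.4 with 35 tags, BC025920 13.1 with 40 tags and Pisd-ps1 10.3 with 51 tags. Pisd-ps1 and Pisd-ps2 (8.42, 45 tags) are copies related to Pisd, the gene of a mitochondrial phosphatidylserine decarboxylase. Rn18s-rs5 had 170 tags but a fold of 3.76 over a local background of 44.5 tags. Reads from parent genes or other copies could be placed at pseudogenes, and that share was not measured.

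IgG regions themselves met the position rule in 16 of 269 cases (5.95%, 3.44 to 9.48%), and all 16 overlapped an Otp region. They lay at the pseudogenes Gm10925 and Gm10222 (3 regions each, folds 2.89 to 4.05, 106 to 149 tags), Gm18604 (19.5) and Rn18s-rs5 (3.39), and at Mir101c (7.60, 122 tags). The lncRNA genes were Gm40237 (12.2 and 12.1), Gm51701 (12.1), 1700012D14Rik (7.14), Gm40034 (7.34), Gm12915 (6.27) and Crnde (4.55, 4 tags). Pseudogenes thus held 8 of the 16, but those at Gm10925 and Gm10222 lay in a single stretch, chr1:24611601-24615549. Of the 15 highest lncRNA members AY036118 was the only one within 1 kb of an IgG region.

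The regions near the bounds of the rule had ordinary heights. Just inside 1 kb of a non-coding end were Gm30699 (992 bp, fold 6.43), Gm36371 (993 bp, 9.24) and Gm16090 (999 bp, 8.81). Just outside were Gm12394 (1003 bp, 7.41), C430042M11Rik (1005 bp, 6.38) and Gm4468 (1009 bp, 7.44). At the protein-coding bound, Gm32957 (1005 bp, 6.08), Gm21104 (1018 bp, 4.79) and Mir1956 (1022 bp) were kept, and Gm2788 (959 bp, 5.50), 4933417D19Rik (953 bp, 4.59) and Gm32680 (945 bp, 5.68) were not. Most members were well inside both: the median distance was 202 bp to the non-coding end and 18519 bp to the nearest protein-coding end. Within 250 bp of the non-coding end lay 55.3% (51.1 to 59.4%), and 441 (76.2%, 72.5 to 79.6%) lay over 5 kb from any protein-coding end. Inside a protein-coding gene lay 191 of the members (33.0%, 29.2 to 37.0%), and the same share of all Otp regions was not counted.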

How the data were processed

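The 2 libraries, 1 per antibody, came with 1 peak list each. The submitters' processing notes name Trimmomatic, Bowtie2, Picard, SAMtools, MACS2 and the build mm10. Their versions, settings and the treatment of duplicates and of reads that map to several places are not given here in any source used. The authors' deposited fold enrichment is a ratio at the summit over the caller's background. The authors' −log10 p and −log10 q were also used as deposited. The deposited summit is the authors' offset in bp from the region's start. Groups were taken from the antibody label. Read totals are not in the lists, so total depth is unknown.

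Regions were placed against RefSeq gene ends of GRCm38.p6, the assembly of mm10. An overlap with IgG needed 1 bp. Tags were solved from fold and −log10 p as a whole-number pileup matching within 0.001, with the next number missing by over 0.005; this was tested on simulated data. Strand and starts were known only for lncRNA and protein-coding genes off chromosome 18, through RefSeq promoter windows of 300 bases, and for microRNAs with a hairpin entry. Intervals are 95% exact binomial or Poisson intervals, for counting error only, since PCR reads are not independent molecules. Coordinates are 1-based.

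The members, lists and motifs were chosen with earlier results of these data known. Named were the 15 highest lncRNA, 6 highest pseudogene and 8 highest small RNA regions by −log10 q, members on the gene lists (small nucleolar RNA host genes, microRNA genes and their hosts, neural and nuclear lncRNAs, RNA polymerase III genes, snRNAs with Rnu symbols, ribosomal protein pseudogenes, antisense lncRNAs, unnamed models), the 3 on each side of each bound and the IgG regions under the same rule. tRNA members in runs, second regions of a gene and other microRNA, snoRNA and pseudogene members were chosen after their values were seen. Alternatives were other windows, thresholds and IgG rules. No genome was used, so region sequences and motifs at summits were not analysed here. Python 3.11.15, numpy 2.4.6, pandas 2.3.3, scipy 1.17.1 and matplotlib 3.10.9 were used.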

Additional observations from a re-analysis of the deposited data

How the results depend on the processing

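Of 67 alternative values, 47 stayed within counting error or within 1.5 times a count, and 20 moved. With a 500 bp window the share of regions at non-coding ends was 3.95%, and the shares of genes were 2.70% (lncRNA) and 0.395% (pseudogenes). With 2 kb these were 7.43%, 4.86% and 0.934%, and small RNA genes reached 3.15%. Over 5 kb from protein-coding ends the share of regions was 4.07%. With −log10 q held to 5 or more, the median fold was 7.28 and the shares were 2.68% (lncRNA genes), 0.355% (pseudogenes) and 1.78% (small RNA genes). At 10, 156 regions were left, 4.36% of the list, with a median fold of 9.60, shares of 0.943%, 0.137% and 0.423%, and 81.4% at lncRNA genes. A fold of at least 5 gave a median of 6.82. lncRNA genes kept a higher share than pseudogenes in each of these. Leaving out members near protein-coding starts and chromosome 18, an alternative chosen after seeing the data, left 489 with a median fold of 6.61. Of 56 named genes, 22 had no region left at a −log10 q of 10 (among them Mir344-2, Mir344b, Mir344g, Mir344h-2, Kcnq1ot1, Mirg, Snhg3, Snhg5 and Snhg15) and 14 over 5 kb from protein-coding ends (among them Snhg3, Snhg8, Snhg9 and Rn7sk). At 500 bp and at a −log10 q of 5 these were 4 each, and at a fold of 5 they were 3. No region lay at AY036118 once IgG regions within 1 kb were barred, and 1 of 3 was left at Rn18s-rs5. No paired analysis was possible because each antibody has 1 library, and for the same reason none could be left out. At a median of 13 tags, weak regions cannot be told from missing ones.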

Other observations

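On the X and Y chromosomes, which the count above leaves out, 11 of 263 regions without IgG overlap met the same position rule (4.18%, 95% exact binomial interval 2.11 to 7.36%). Erdr1, annotated as a transcribed pseudogene, had the highest, with a fold of 10.1 and 45 tags. Firre, a lncRNA of nuclear organisation transcribed from the X chromosome, had a fold of 8.60 and 12 tags with the summit 39 bp from its end. Kantr had 7.84 and 12 tags, 71 bp from its end, and Jpx, an activator of Xist, had 4.92 and 7 tags at 140 bp. The others were at 5330434G04Rik (9.96), Gm6787 (9.06 and 5.57), Gm46674 (7.28), 5730405O15Rik (7.13), Gm25624 (5.29) and, on the Y chromosome, Gm33272 (3.88). The labels state neither the sex nor the number of the animals.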
